A study of Mus musculus with 20 samples.

Results

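Genes of sterol and fatty acid synthesis were followed through sorted mouse blood stem and progenitor cells with and without the gene Hopx. They were chosen by name, as 30 genes that build cholesterol, control its synthesis or build fatty acids, and all 30 were found among the 45706 genes of the table. By role, 7 belong to the mevalonate steps, 11 to the squalene and sterol steps, 6 to the control by SREBP factors and 6 to fatty acid synthesis. All 30 passed the filter on low values that left 17160 genes for testing. RNA sequencing had been done on 20 libraries of bone marrow cells from C57BL/6 mice aged 8 weeks. By their labels, the 11 wild-type (WT) libraries came from animals with intact Hopx, and the 9 knockout (KO) libraries from animals without it. 3 sorted populations were compared: long-term haematopoietic stem cells (LT-HSC), with 4 WT and 3 KO libraries, the multipotent progenitors MPP2, with 3 of each, and the multipotent progenitors MPP3, with 4 WT and 3 KO. No source used here gives the kind of Hopx allele, the antibodies of the sort or the number of animals behind a library. The labels name no animal, so p-values measure only the spread between these libraries.

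Cells make cholesterol from acetyl-CoA through mevalonate, isoprenoid units and squalene, which is closed into lanosterol and trimmed to cholesterol in a chain of enzyme steps. Fatty acids come from the same acetyl-CoA through malonyl-CoA, and are then elongated and desaturated. The SREBP transcription factors, made from Srebf1 and Srebf2, turn both sets of genes on. Scap carries SREBP from the endoplasmic reticulum to the Golgi when sterols are low, and the Insig proteins hold it back when sterols are high. Blood stem cells rest for most of their life, and dividing progenitors need new membrane lipid.

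SREBP factors are known to act on promoters beside the factors NF-Y, which binds the letters CCAAT, and Sp1, which binds GC boxes. The 250 bases before a RefSeq transcript start (GRCm38.p6) were at hand for 24 of the 30 genes, and those letters were searched on both strands. CCAAT was found in 19 of 24 genes (79.2%), against 37.5% of all 27025 genes with such a window, a gene counting where any of its promoters held the letters. Those 27025 genes were not limited to genes with reads here, whereas all 30 passed the filter on low values. The shares among expressed genes were not tested. The GC box GGGCGG was found in 20 genes (83.3%), against 35.4% of all genes. The E-box CACGTG was in 5 genes (20.8%) against 6.86%, and the sterol regulatory element TCACNCCAC in 1, Hmgcs1, or 4.17% against 1.22%. Per promoter, CCAAT was in 20 of the 32 promoters of these genes. These matches describe letters and show neither binding nor a cause. 3 windows are shown because Cyp51 and Ebp, both enzymes of the sterol steps, lay on opposite sides in MPP2 against LT-HSC, and Hmgcs1 holds the sterol element. They read 5′ to 3′ toward the gene, with the searched letters of either strand in capitals (ATTGG is CCAAT and CCGCCC is GGGCGG on the other strand), and the 49 bases of the Cyp51 window that lie inside its GENCODE transcript, which hold its only CCAAT, are left out.
Cyp51, chr5:4104747-4104947, minus strand: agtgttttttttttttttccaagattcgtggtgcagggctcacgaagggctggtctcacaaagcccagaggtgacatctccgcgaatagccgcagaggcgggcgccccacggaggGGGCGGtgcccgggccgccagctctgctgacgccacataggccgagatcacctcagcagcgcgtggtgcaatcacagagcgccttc
Ebp, chrX:8193513-8193762, minus strand: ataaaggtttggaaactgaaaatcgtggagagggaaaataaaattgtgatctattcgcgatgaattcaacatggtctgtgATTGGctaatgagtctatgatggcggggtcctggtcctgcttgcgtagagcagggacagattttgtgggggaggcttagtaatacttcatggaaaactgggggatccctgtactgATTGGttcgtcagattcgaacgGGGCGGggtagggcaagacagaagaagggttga
Hmgcs1, chr13:119690101-119690350, plus strand: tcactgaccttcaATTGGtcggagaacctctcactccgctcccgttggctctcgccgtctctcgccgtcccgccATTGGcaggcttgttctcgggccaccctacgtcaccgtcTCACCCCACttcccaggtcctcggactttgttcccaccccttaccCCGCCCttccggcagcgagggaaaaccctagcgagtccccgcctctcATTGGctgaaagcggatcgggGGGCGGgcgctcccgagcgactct

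Each library held between 11163345 and 15189909 reads in genes. Hopx had 0 reads in all 9 KO libraries and also in the library labelled WT LT-HSC replicate 4, against 11 to 70 in the other WT libraries. WT MPP2 replicate 3 carried more lymphoid transcripts than the other MPP2 libraries, with a summed level of 12247 over 5 markers against 94.4 to 504. Transcripts of mature neutrophils were high in 5 libraries, with sums of 17077 in WT LT-HSC replicate 2, 24837 in KO LT-HSC replicate 1, 8026 in WT MPP2 replicate 2, and of 25163 and 19254 in replicates 2 and 3 of WT MPP3, against 56.2 to 976 in the other 15. B cell transcripts stood highest in KO LT-HSC replicate 1 (1498) and WT MPP3 replicate 3 (1074). By Xist and Y-linked transcripts 6 of 9 KO and 3 of 11 WT libraries were female. The labels number the libraries, and near numbers were grouped here into 4 runs, which the labels do not call batches. The run of 52 to 54 held only the 3 female WT libraries, so run, sex and genotype cannot be fully told apart. Fits with either sex or run as a covariate kept both calls against LT-HSC. The calls are also given without the 2 libraries with no Hopx reads or with lymphoid transcripts (the 2 libraries that stand apart) and without the 5 with neutrophil transcripts. Of 8 LT-HSC marker genes, 7 were lower in MPP2 than in LT-HSC and 5 lower in MPP3 (limma, adjusted p under 0.05). Of 5 granule genes of myeloid precursors, all 5 were higher in MPP3. Summed markers of cycling cells ran from 11254 to 26925 in LT-HSC, from 30187 to 41674 in MPP2 and from 10701 to 30568 in MPP3, and 6 of 10 were called higher in MPP2 than in LT-HSC. Their part in the results was not tested. Fat cells, which make much fatty acid, left little trace: Plin1 was at 0 in every library and 4 fat cell markers summed to 0 to 233.

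Transcripts of the 30 genes were found in all 3 populations, and few of the genes were called between groups. Only RNA was measured, and a gene that was not called may still differ. Stard4, which encodes a sterol transfer protein of the cytosol, fell from a mean of 1065 ± 211 (SD, n = 7) normalized counts in LT-HSC to 559 ± 169.8 (SD, n = 7) in MPP3. Cyp51, the demethylase that acts on lanosterol, fell from 754 ± 258 (SD, n = 7) in LT-HSC to 324 ± 133 (SD, n = 6) in MPP2, a call that was lost in several alternative fits. No gene of the 30 passed the test for an effect of the Hopx knockout in any population. In bulk RNA, fewer cells of a kind and less RNA per cell cannot be told apart.

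Levels were compared between genes as normalized counts per kilobase of exon. Ebp, the sterol isomerase, had the highest mean at 528 per kilobase over the 20 libraries, and Acly, which splits citrate into acetyl-CoA for both pathways, followed at 426. Acat2 (259.7), the thiolase that joins acetyl-CoA units, Pmvk (251), a kinase of the mevalonate steps, and Scd2 (245), a fatty acid desaturase, came next. At the low end stood Acaca (8.73), which makes malonyl-CoA, Fdps (8.63), the synthase of farnesyl diphosphate, and Scd1 (6.38), another desaturase. Fdps shares 1124 of its 4208 exon bases with Gm43738, a gene on the same strand at 0 in the table, and whether reads there were dropped was not tested. The same limit holds for Tm7sf2, which shares 532 of its 4403 exon bases with Vps51 on the same strand (mean 555 normalized counts). In this per-length scale Srebf2 (168) and Srebf1 (142) were close. Their ranges, 82.1 to 256 and 75.4 to 205, overlapped. Scd2 exceeded Scd1 in mean level, and the lowest library of Scd2 (109) lay above the highest of Scd1 (75.2). Reads were found in every library for 24 genes, and Fdft1, Mvk, Mvd, Tm7sf2, Hsd17b7 and Scd1 were at 0 in 1 to 5 libraries.

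**Figure D1:**
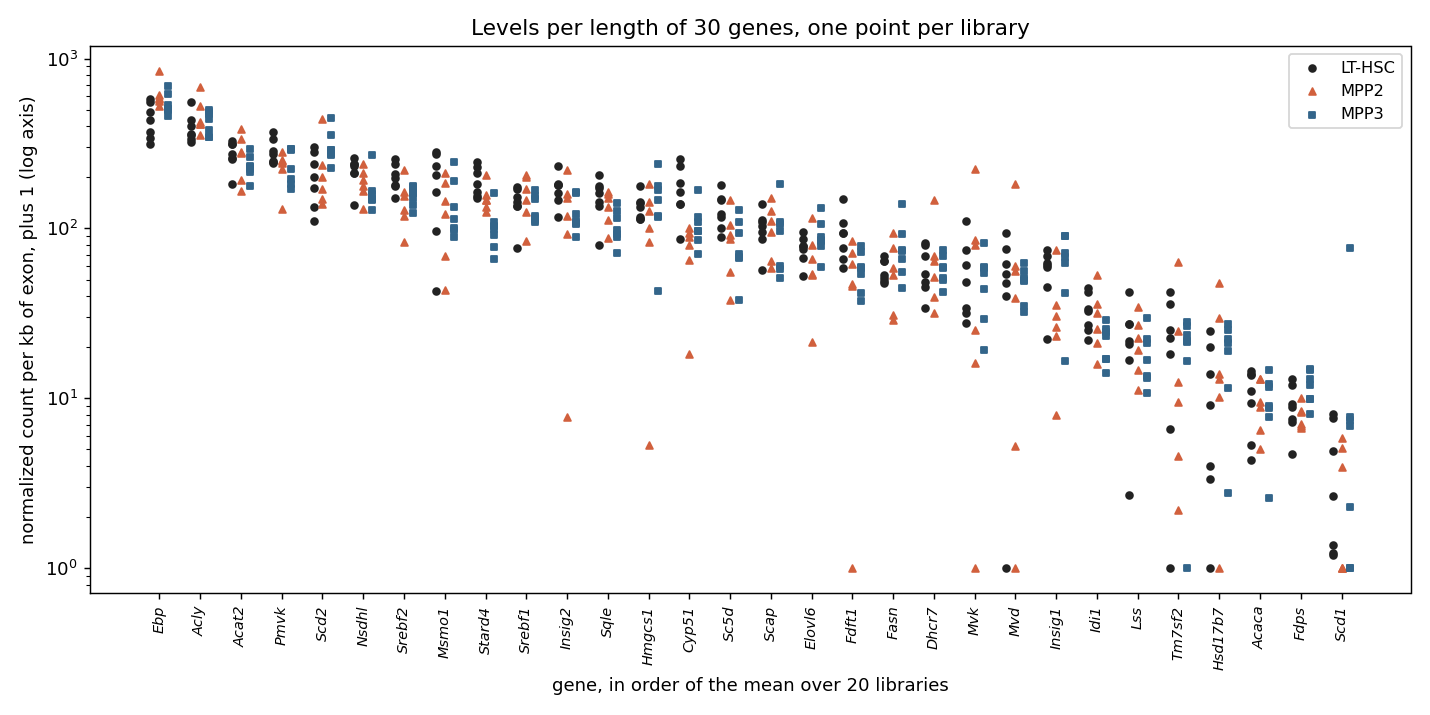
Normalized count per kilobase of exon plus 1, on a log axis, for the 30 genes in order of their mean over 20 libraries; each point is a library, and its shape gives the population. Ebp and Acly lead at means of 528 and 426, and Scd1 is last at 6.38 with a single MPP3 library far above the rest.

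Libraries of a group differed by unequal amounts from gene to gene. The within-group SD on the log2 scale had a median of 0.567 over the 30 genes and 0.673 over all genes tested, which differ in level. Set beside genes of like level, 16 of the 30 lay above the median SD of such genes. It was smallest for Acly (0.244) and Ebp (0.297) and largest for Scd1 (2.68) and Tm7sf2 (2.54). Fdps varied little for its low level, with an SD of 0.438 where 841 genes of like level had a median of 1.64. Hmgcs1, the synthase that feeds the mevalonate steps, varied more than its level, with 1.18 against 0.468.

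Libraries at the extremes of these genes were read against their place among all genes. KO MPP2 replicate 3 was the lowest of 20 libraries, ties included, for 9 of the 30 genes and the highest for 6. Among all genes tested it was the lowest for 34.3% and the highest for 13.5%, so 9 and 6 of 30 are near what the library shows in any gene. It also had the fewest genes with a read (14931). Its low genes held Mvk, Mvd and Fdft1 at 0, Hmgcs1 at 19.6, Insig1 at 21.6 and Insig2 at 23.6. Its high genes held Ebp, Acly, Acat2, Idi1, Hsd17b7 and Srebf1. WT MPP3 replicate 3, with the next fewest genes (15826), was highest for Scd1, Fasn and Scap, against 10.5% of all genes. WT LT-HSC replicate 1 was lowest for 5 genes, Fdps, Lss, Msmo1, Hsd17b7 and Srebf1, against 12.5% of all genes.

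**Figure D2:**
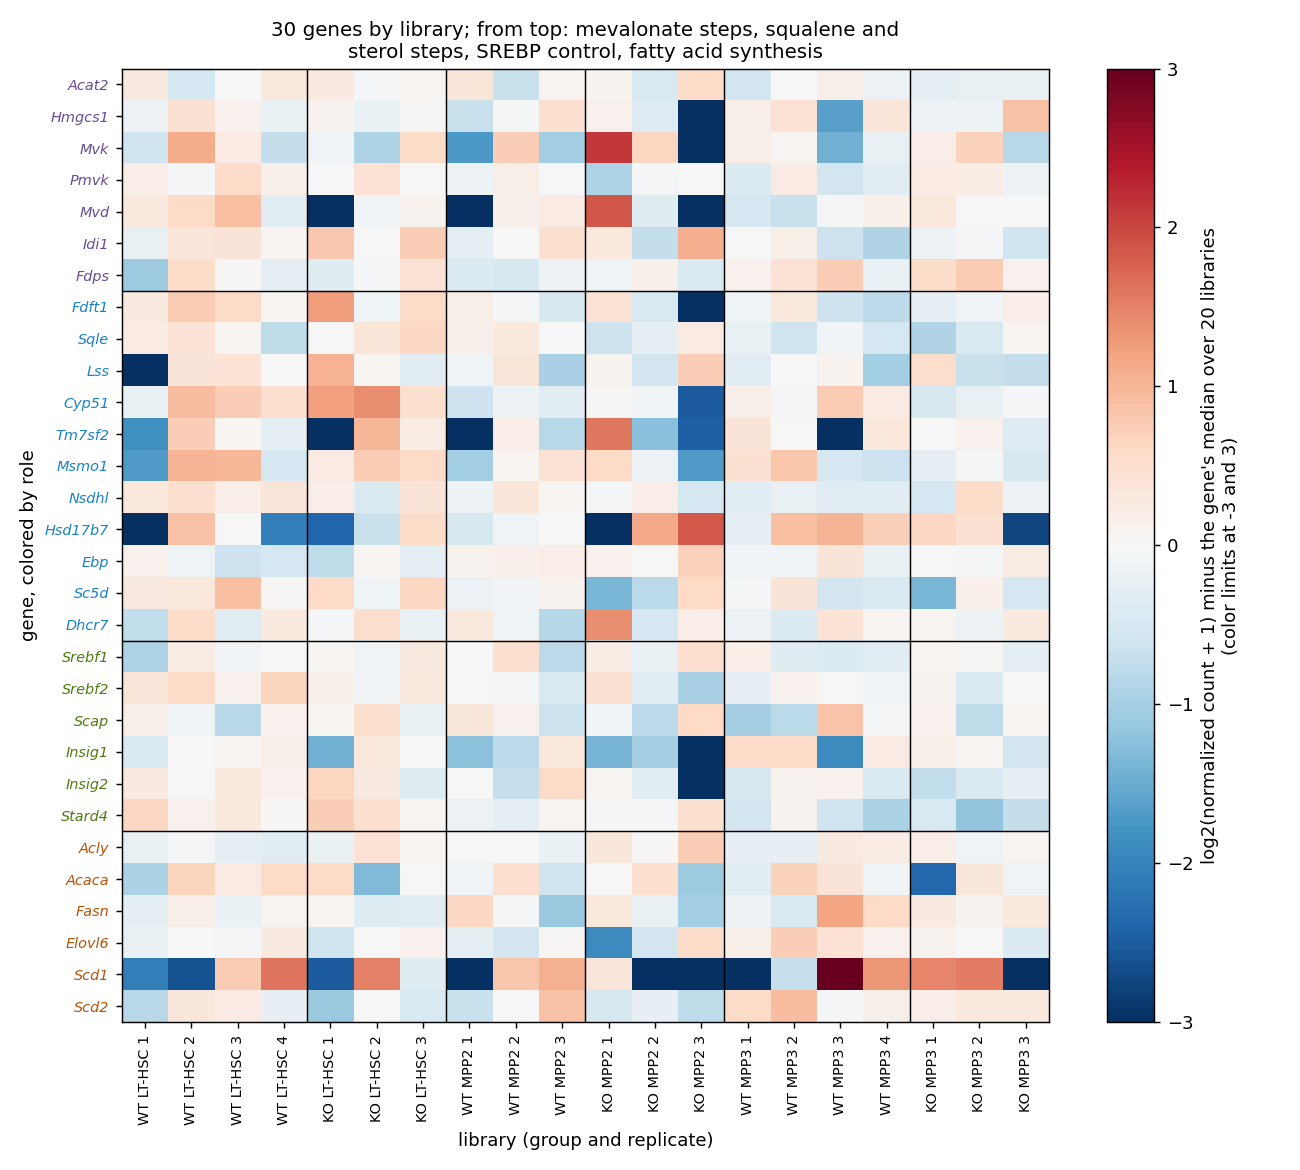
Each square is log2(normalized count + 1) in a library (columns, by group) minus the gene's median over 20 libraries, for the 30 genes (rows, by role); colors stop at -3 and 3. KO MPP2 replicate 3 holds the lowest value of 9 genes and the highest of 6.

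Which of these genes differ between stem cells and progenitors was asked first, with both genotypes averaged and limma on log2(normalized count + 1). A gene was called at a Benjamini-Hochberg adjusted p under 0.05 over all 17160 genes. Between MPP2 and LT-HSC 1 of 30 genes was called, Cyp51, where limma called 7.32% of all genes. Between MPP3 and LT-HSC 1 was called, Stard4, against 7.4% of all genes, and between MPP2 and MPP3 1, Stard4 again, against 6.88%. Those counts are under the shares of all genes, so they are no result about the list as a whole. At an unadjusted p under 0.05 limma gave 4 genes between MPP2 and LT-HSC (22.8% of all genes), 5 between MPP3 and LT-HSC (17.9%) and 3 between MPP2 and MPP3 (20.5%). EdgeR called Cyp51 in MPP2 and Stard4 in MPP3 against LT-HSC and 0 genes between MPP2 and MPP3, with 4.5%, 5.95% and 4.32% of all genes. DESeq2 called Cyp51 and Ebp, then Stard4, then Stard4, with 11%, 9.04% and 9.5%. In none of the 3 comparisons did a gene of the 30 separate the populations without overlap, as 2.6%, 4.66% and 2.41% of all genes did. The median log2 difference of the 30 was -0.21 for MPP2 against LT-HSC, beside -0.11 for all genes. It was -0.10 for MPP3 against LT-HSC beside -0.000439, and -0.17 for MPP2 against MPP3 beside -0.09. That last median turned to 0.0323 in edgeR, 0.0339 in DESeq2 and 0.0477 without KO MPP2 replicate 3.

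**Figure D3:**
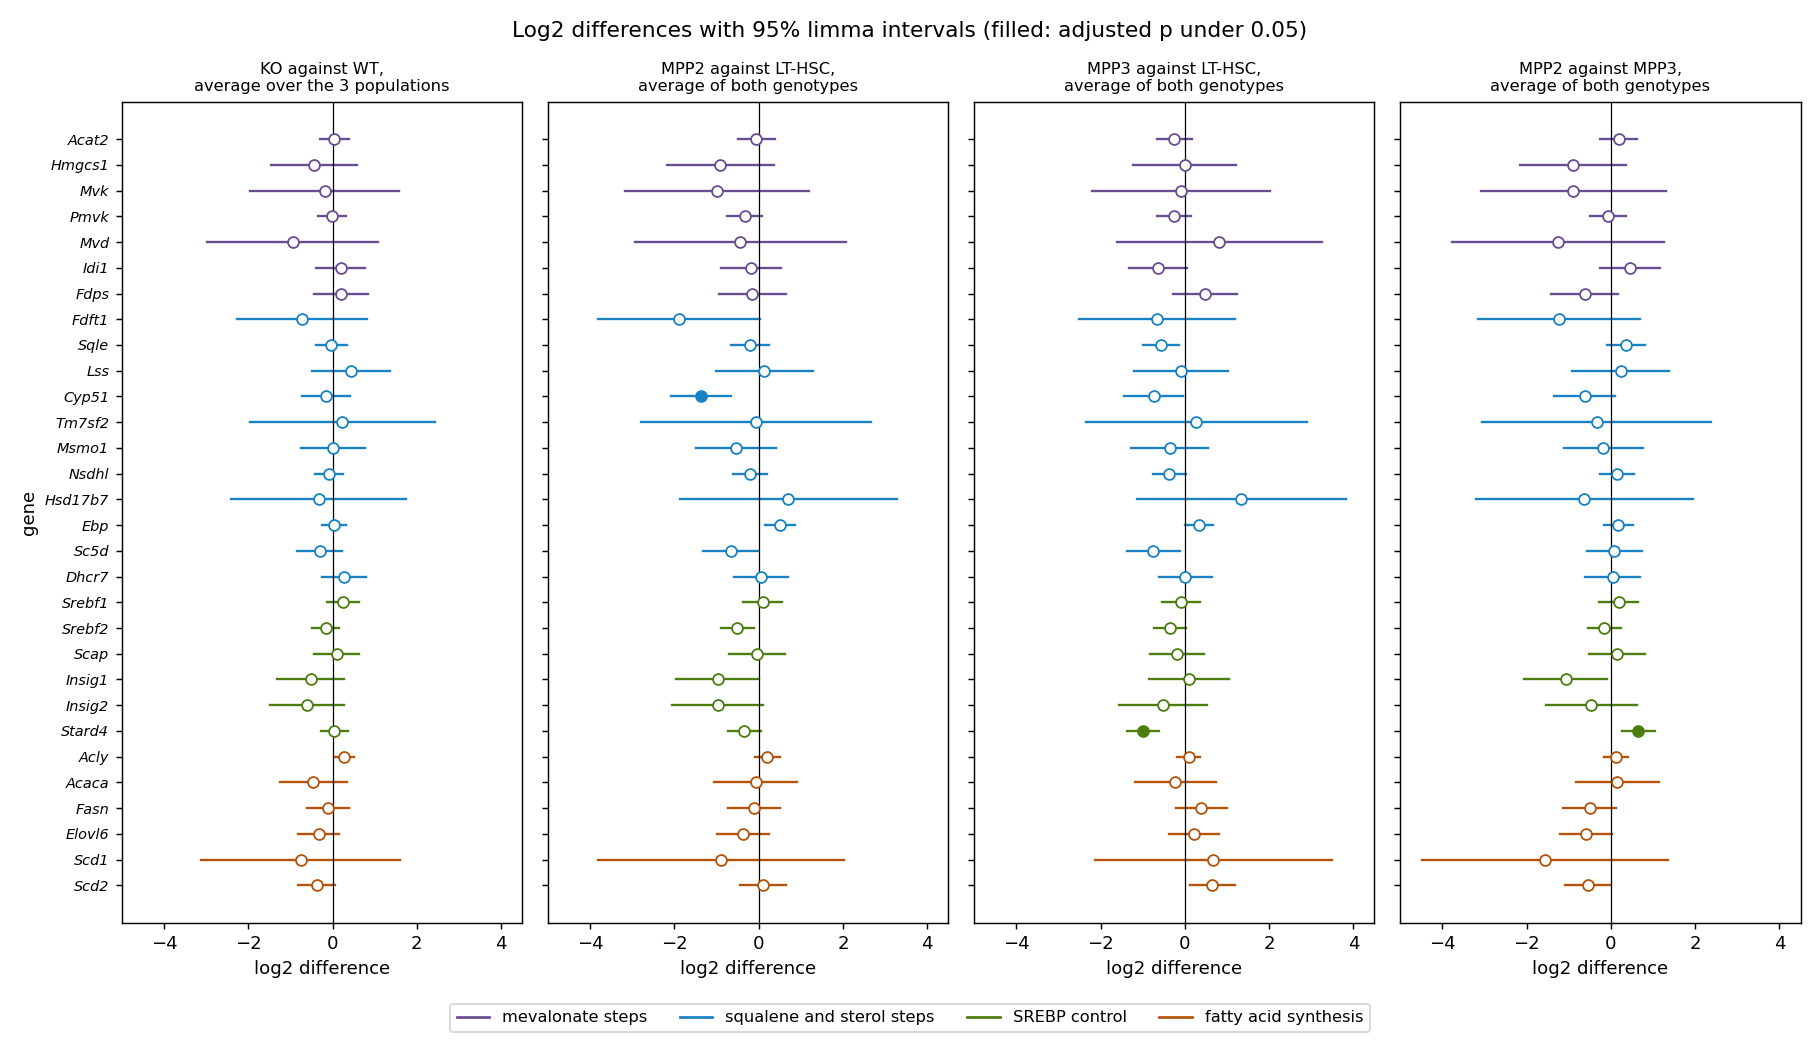
Log2 differences (points) with 95% limma intervals (lines) for the 30 genes in 4 comparisons, colored by role; filled points had an adjusted p under 0.05. Filled are Cyp51 at -1.37 for MPP2 against LT-HSC and Stard4 at -0.99 for MPP3 against LT-HSC and 0.65 for MPP2 against MPP3.

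Of the 7 genes of the mevalonate steps, none passed the test in any comparison of populations. All 7 had a lower mean log2 value in MPP2 than in LT-HSC, with a median of -0.33 and a range of -0.99 to -0.06, and 57.8% of all genes tested were lower too. By mean normalized count, Mvk (190 in MPP2, 146 in LT-HSC) and Mvd (105 and 97.9) were higher in MPP2, and the rest were lower. Both Mvk and Mvd were at 0 in KO MPP2 replicate 3. Over the alternative settings 5 to 7 of the 7 were lower. Hmgcs1 ran from 518 to 811 in LT-HSC, from 19.6 to 834 in MPP2 and from 192 to 1100.3 in MPP3. Its MPP2 difference (log2 difference -0.91, SE 0.60, limma adjusted p = 0.389) did not pass, and its lowest library was KO MPP2 replicate 3. Idi1, the isomerase of the isoprenoid units, was 74.2, 111, 114 and 91.0 in the WT and 152, 85.2 and 144 in the KO libraries of LT-HSC. In MPP3 it was 86.7, 98.0, 56.1 and 46.0 in the WT and 77.7, 83.1 and 56.3 in the KO libraries, and the ranges overlapped (log2 difference -0.63, SE 0.33, limma adjusted p = 0.341). Fdps stayed between 15.6 and 58.5 normalized counts in all libraries. Acat2, which starts the chain, ran over 461 to 832, 419 to 977 and 448 to 747 in LT-HSC, MPP2 and MPP3, and Pmvk, the second kinase of mevalonate, over 413 to 630.3, 221 to 481 and 289.6 to 503. These ranges overlapped. The kinase Mvk ran over 71.1 to 294, 0 to 595 and 49.0 to 218 and the decarboxylase Mvd over 0 to 174, 0 to 338 and 57.8 to 114, with MPP2 the widest for both genes.

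Among the 11 genes of the squalene and sterol steps, Cyp51 (chromosome 5, 4081145 to 4104746, minus strand, GRCm38, protein-coding) was called lower in MPP2 and the other 10 did not pass. In LT-HSC its normalized counts were 377, 816, 720.5 and 612 in the WT and 1018, 1129 and 607 in the KO libraries. In MPP2 they were 282, 389 and 347 in the WT and 441, 409 and 75.7 in the KO libraries, and in MPP3 478, 423, 737 and 514 in the WT and 309, 372 and 423 in the KO libraries. All LT-HSC libraries but WT replicate 1 lay above every MPP2 library. The difference of MPP2 from LT-HSC was -1.37 on the log2 scale (SE 0.34, 95% interval -2.08 to -0.65, limma adjusted p = 0.0218), the mean of -0.85 in WT and -1.89 in KO. Cyp51 was not called in either genotype alone, and in WT its unadjusted limma p was not under 0.05. Without KO MPP2 replicate 3, its lowest library, it was -0.95 (limma adjusted p = 0.019), and without the 2 libraries that stand apart -1.38 (limma adjusted p = 0.0479). Without the 5 libraries with neutrophil transcripts the difference was -1.30 and the call was lost (limma adjusted p = 0.148). It was also lost without KO LT-HSC replicate 1 or 2 (limma adjusted p = 0.0515 and 0.0506), without the 3 WT libraries that the labels number 52 to 54 (0.0576) and in edgeR on the 18 libraries whose value of 1 read is clearly not 1 (0.0836). Its exons share 166 bases with Akap9 on the other strand, and no source used here says whether reads were counted by strand. Akap9 itself did not pass in this comparison (-0.27, SE 0.20, limma adjusted p = 0.468).

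Ebp (chromosome X, 8185329 to 8193512, minus strand) lay the other way from Cyp51, at 1332, 1116, 788 and 847 in the WT and 721, 1273 and 1007 in the KO libraries of LT-HSC. In MPP2 it was 1304, 1347 and 1402 in the WT and 1332, 1213 and 1954 in the KO libraries, and in MPP3 1156, 1149.6, 1594 and 1053 in the WT and 1226, 1163 and 1421 in the KO libraries. Of these, the lowest MPP2 library, at 1213, was above 5 of 7 LT-HSC libraries, yet the difference missed the threshold (log2 difference 0.51, SE 0.17, limma adjusted p = 0.072). DESeq2 called it (adjusted p = 0.0484), and limma did without WT LT-HSC replicate 1, KO LT-HSC replicate 2 or KO MPP2 replicate 2 (adjusted p = 0.042, 0.0461 and 0.0497). Without the 2 libraries that stand apart it was 0.46 (limma adjusted p = 0.162).

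Sqle (chromosome 15, 59315077 to 59331192, plus strand), the squalene epoxidase that is a control point of the chain, was 887, 984, 788 and 435 in the WT and 749, 952 and 1135 in the KO libraries of LT-HSC. It was 827, 908 and 734 in the WT and 485, 616 and 873 in the KO libraries of MPP2 and 636, 486, 700.3 and 510.4 in the WT and 394, 536 and 775 in the KO libraries of MPP3. MPP3 had the lowest mean and overlapped both other populations (log2 difference -0.56, SE 0.21, limma adjusted p = 0.129 against LT-HSC). Its lowest LT-HSC value came from the library with the label WT LT-HSC replicate 4, and with that library left out Sqle was called lower (-0.69, limma adjusted p = 0.0326). Sc5d (chromosome 9, 42251595 to 42264256, minus strand), a sterol desaturase near the end of the chain, was 565, 587, 874 and 484 in the WT and 707, 427 and 718 in the KO libraries of LT-HSC. It was 416, 443 and 504 in the WT and 179, 266 and 708 in the KO libraries of MPP2 and 454, 617, 319 and 339 in the WT and 180.5, 523 and 323 in the KO libraries of MPP3. Both progenitors had lower means than LT-HSC and neither difference passed, with -0.66 for MPP2 (limma adjusted p = 0.209) and -0.75 for MPP3 (limma adjusted p = 0.173). Without KO MPP2 replicate 3, limma called Sc5d in MPP2 and Cyp51 in MPP3, both lower than in LT-HSC.

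The other 7 genes of the sterol steps were Fdft1, which joins farnesyl units into squalene, Lss, which closes the rings, Tm7sf2, Msmo1, Nsdhl, Hsd17b7 and Dhcr7. Their log2 differences from LT-HSC ran from -1.90 (Fdft1, limma adjusted p = 0.226) to 0.71 (Hsd17b7) in MPP2 and from -0.66 to 1.34 in MPP3. Fdft1 was 297, 255 and 190.2 in the WT and 351, 194 and 0 in the KO libraries of MPP2, the 0 being KO MPP2 replicate 3. It shares 774 exon bases with Ctsb on the other strand. Msmo1, a demethylase that acts after Cyp51, spread from 258 to 1728, and both ends lay in WT LT-HSC. Nsdhl, which acts with it to remove methyl groups, ran over 392 to 739.7, 367 to 680.5 and 363 to 771 in LT-HSC, MPP2 and MPP3, and Dhcr7, a reductase of the last steps, over 192 to 470.0, 178 to 845 and 240.0 to 426. Neither gene set the populations apart. The ring-closing Lss ran over 18.3 to 448, 109.9 to 362 and 106 to 311. Tm7sf2, a sterol reductase, and Hsd17b7, a ketoreductase that works with Msmo1 and Nsdhl, were low, at 0 to 274 and 0 to 238 over all libraries.

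Of the 6 control genes, Stard4 was called in 2 comparisons. It lies on chromosome 18 and its transcript is a known target of SREBP2. In LT-HSC it was 1276, 912, 1017 and 843 in the WT and 1374, 1174 and 862 in the KO libraries. In MPP2 it was 737, 688 and 872 in the WT and 815, 813 and 1149 in the KO libraries, and in MPP3 568, 895, 546 and 428 in the WT and 602, 363 and 509 in the KO libraries. All 7 LT-HSC libraries lay above all MPP3 libraries but WT MPP3 replicate 2, and the MPP2 mean lay between. Stard4 fell in MPP3 against LT-HSC (log2 difference -0.99, SE 0.18, limma adjusted p = 0.00173, 95% interval -1.37 to -0.61). Taken by genotype, the difference was -1.21 in KO (limma adjusted p = 0.0266) and -0.77 in WT (limma adjusted p = 0.0911). The call held in all 12 other settings and all 20 fits without a library, with values of -1.09 to -0.89. Without the 2 libraries that stand apart it was -1.03 (limma adjusted p = 0.00294), and without the 5 with neutrophil transcripts -1.06 (limma adjusted p = 0.00856). The higher level in MPP2 than in MPP3 (log2 difference 0.65, SE 0.19, limma adjusted p = 0.0455) was less firm. It was lost in edgeR (adjusted p = 0.065), with no filter on low values (0.0886), without the 2 libraries that stand apart (0.0891), without the 5 with neutrophil transcripts (0.0661) and in 14 of 20 limma fits without a library. In the latter the call remained only when the library left out was KO LT-HSC replicate 1, KO MPP3 replicate 1, WT LT-HSC replicate 1, KO MPP2 replicate 2, KO LT-HSC replicate 3 or WT MPP3 replicate 2.

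Srebf2 (chromosome 15, 82147181 to 82205379, plus strand), which encodes the SREBP that leans to sterol genes, was 1500.2, 1723, 1273 and 1838 in the WT and 1295, 1083 and 1416 in the KO libraries of LT-HSC. It was 1164, 1109.8 and 846 in the WT and 1583, 910.3 and 589 in the KO libraries of MPP2 and 983, 1263, 1155 and 1081 in the WT and 1256, 877 and 1149 in the KO libraries of MPP3. LT-HSC had the highest mean and overlapped both progenitors, and the MPP2 difference did not pass (log2 difference -0.51, SE 0.19, limma adjusted p = 0.109) except without KO MPP2 replicate 1 (-0.69, limma adjusted p = 0.015). Srebf1 (chromosome 11, 60199089 to 60222581, minus strand), the SREBP gene that leans to fatty acid genes, was 425, 954, 763 and 806 in the WT and 854, 762 and 984 in the KO libraries of LT-HSC. It was 823, 1129.8 and 471 in the WT and 957, 702 and 1156 in the KO libraries of MPP2 and 941, 629, 609 and 647 in the WT and 864, 831 and 662 in the KO libraries of MPP3. No order of the populations was seen, with log2 differences of 0.10 (MPP2) and -0.08 (MPP3) from LT-HSC.

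Insig1 (chromosome 5, 28071363 to 28078662, plus strand), itself an SREBP target that holds SREBP back, was 136, 185, 189.9 and 209 in the WT and 66.4, 227 and 182 in the KO libraries of LT-HSC. It was 77.8, 106 and 228 in the WT and 68.6, 91.5 and 21.6 in the KO libraries of MPP2 and 275, 275, 48.1 and 217 in the WT and 207, 189.8 and 125 in the KO libraries of MPP3. MPP2 had the lowest mean and 3 KO libraries at or under 91.5, while WT MPP2 replicate 3 was level with the highest of LT-HSC. The difference of MPP2 from MPP3 did not pass (log2 difference -1.07, SE 0.47, limma adjusted p = 0.201) except without WT MPP3 replicate 3 (-1.37, limma adjusted p = 0.0462). Insig2 had means of 593 ± 124 (SD, n = 7), 430.0 ± 250.3 (SD, n = 6) and 425 ± 99.5 (SD, n = 7) in LT-HSC, MPP2 and MPP3, and Scap had 741 ± 189.6 (SD, n = 7), 747 ± 269 (SD, n = 6) and 697 ± 338 (SD, n = 7). The summed level of the 6 control genes ran from 4289.9 to 5159 in LT-HSC, from 3349 to 4676 in MPP2 and from 3082 to 4269 in MPP3. The lowest LT-HSC library lay just above the highest MPP3 library, and this sum was not tested.

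None of the 6 fatty acid genes passed between populations. Of these, 5 had a higher mean log2 value in MPP3 than in LT-HSC, as did 8572 of the 17160 genes tested. The median log2 difference of the 6 was 0.30, beside -0.000439 for all genes. Over the alternative settings 3 to 6 of the 6 genes were higher. Their summed level was 3651 to 5330.0 in LT-HSC and 5019.6 to 6609 in MPP3, which overlap. Scd2 (chromosome 19, 44293674 to 44306864, plus strand) was 727, 1631, 1534 and 1098 in the WT and 596, 1299 and 934 in the KO libraries of LT-HSC. It was 813, 1286 and 2391 in the WT and 927, 1094 and 759 in the KO libraries of MPP2 and 1936, 2450.1, 1233 and 1472 in the WT and 1490.1, 1581 and 1574 in the KO libraries of MPP3. MPP3 had the highest mean, with WT MPP2 replicate 3 close to its top, and the difference from LT-HSC did not pass (log2 difference 0.66, SE 0.25, limma adjusted p = 0.146). Fasn (chromosome 11, 120805846 to 120824547, minus strand), the fatty acid synthase, was 551, 746, 575 and 695 in the WT and 691, 509 and 527 in the KO libraries of LT-HSC. It was 1018, 632 and 304 in the WT and 824, 569 and 326 in the KO libraries of MPP2 and 595, 477, 1507 and 1001 in the WT and 801, 717 and 804 in the KO libraries of MPP3, where WT replicate 3 was the highest of all (log2 difference 0.39, SE 0.29, limma adjusted p = 0.561 against LT-HSC).

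Scd1 (chromosome 19, 44394455 to 44407879, minus strand) was near 0 in most libraries. It was 1.83, 0.95, 19.1 and 34.8 in the WT and 1.09, 32.5 and 8.17 in the KO libraries of LT-HSC. It was 0, 20.01 and 23.6 in the WT and 14.3, 0 and 0 in the KO libraries of MPP2 and 0, 6.28, 368 and 28.9 in the WT and 31.5, 33.0 and 0 in the KO libraries of MPP3, so that WT MPP3 replicate 3 alone reached 368. In that library fat cell markers were at 0, while 7 mature neutrophil markers summed to 19254 and 4 B cell markers to 1074. Their part in the high values was not tested. Elovl6, which lengthens saturated fatty acids, had log2 differences of -0.37 in MPP2 and 0.21 in MPP3 from LT-HSC, and Acaca -0.07 and -0.22. Elovl6 ran over 330.0 to 605, 131 to 735 and 377 to 837 in LT-HSC, MPP2 and MPP3 and Acaca over 57.1 to 229, 68.8 to 205 and 27.3 to 232. Without KO MPP2 replicate 3, limma called Elovl6 lower in MPP2 than in MPP3.

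Whether loss of Hopx shifts these genes was asked within each population. Limma called 0 of 30 genes in LT-HSC, MPP2, MPP3 and the average of the 3, where it called 0.00583%, 0.0117%, 0.00583% and 0.0117% of all genes. EdgeR also called 0 of 30 each time (0%, 0%, 0% and 0.00583% of all genes), as did DESeq2 (0.123%, 0.696%, 0.129% and 0.316%). At an unadjusted p under 0.05 limma gave 0, 1, 0 and 1 genes (2.66%, 7.88%, 2.02% and 5.03% of all genes). A test of whether the knockout effect differed between populations called 0 of 30 in limma, edgeR and DESeq2 (0%, 0% and 0.0553% of all genes), and 0 at an unadjusted limma p under 0.05 (3.07%). The median log2 difference of the 30 was 0.05 in LT-HSC, -0.23 in MPP2 and 0.02 in MPP3, beside -0.03, -0.10 and 0.03 for all genes. In MPP2 the edgeR median of the 30 was -0.03, and the limma median without KO MPP2 replicate 3 was 0.0011.

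Acly (chromosome 11, 100476353 to 100528000, minus strand) came nearest to a knockout difference. In LT-HSC it was 1872, 2120.4, 1780.5 and 1709 in the WT and 1892, 2935 and 2275 in the KO libraries, and in MPP2 2174, 2168 and 1877 in the WT and 2768, 2217 and 3593 in the KO libraries. In MPP3 it was 1822, 1826, 2636 and 2548 in the WT and 2489, 2009 and 2311 in the KO libraries. The 3 KO libraries of MPP2 lay above the 3 WT libraries, while in LT-HSC and MPP3 the genotypes overlapped. The differences were 0.32 in LT-HSC, 0.44 in MPP2 and 0.06 in MPP3 on the log2 scale, and 0.27 on average (SE 0.11, limma adjusted p = 0.857). In MPP3, Cyp51 and Elovl6 were lower in every KO library than in every WT library (log2 differences -0.53 and -0.48, 95% intervals -1.51 to 0.45 and -1.31 to 0.36), for Cyp51 by under 1 normalized count between the nearest libraries. In all, 0, 1 and 2 of 30 genes had no overlap between genotypes in LT-HSC, MPP2 and MPP3, against 5%, 5.93% and 3.93% of all genes.

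The data leave room for knockout effects, and for the genes with wide intervals these could be large. The 95% interval of the log2 difference reached a median of 0.94 to either side in LT-HSC, 1.005 in MPP2 and 0.94 in MPP3, and 0.555 for the average. The widest interval reached 3.98, 4.26 and 3.98 to either side in LT-HSC, MPP2 and MPP3, and 2.35 for the average. For Srebf2 the average difference was -0.16 with an interval of -0.48 to 0.16. For Srebf1 it was 0.24 (-0.13 to 0.62), for Insig1 -0.52 (-1.32 to 0.27) and for Fasn -0.11 (-0.62 to 0.39). Scd2 had -0.37 (-0.81 to 0.07) and Scd1 -0.76 (-3.11 to 1.59). Stard4 and Cyp51, the genes that differed between populations, had 0.04 (-0.28 to 0.36) and -0.16 (-0.74 to 0.42). Without the 2 libraries that stand apart the averages were 0.15 for Srebf1, 0.23 for Acly, -0.35 for Insig1, -0.26 for Fasn, -0.25 for Scd2 and -0.25 for Scd1, and none passed. Without KO MPP2 replicate 3 Srebf2 had -0.05, Fasn 0.0042 and Cyp51 0.12, the last with its sign turned. Without the 5 libraries with neutrophil transcripts Scd1 had 0.13, also turned, and Acly 0.36. The largest single-population difference of the control genes was that of Insig2 in MPP2 (log2 difference -1.51, SE 0.75, limma adjusted p = 0.649), where KO replicate 3 was at 23.6 and the other KO libraries at 548 and 405.

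A further 59 genes of lipid handling were listed beside the 30, in 6 groups: SREBP processing, LXR and efflux, uptake and lysosomal export, the prenyl branch, acetyl-CoA supply with elongation and desaturation, and fatty acid oxidation. Of 57 that could be tested, limma called 0 for the knockout on average. Between MPP2 and LT-HSC it called 1 of 57, against 7.32% of all genes: Slc25a20, the carrier that brings acylcarnitine into mitochondria, which was 805 to 1105 in LT-HSC with a median of 920.0 and 456 to 908 in MPP2 with a median of 592 (log2 difference -0.66, SE 0.17, limma adjusted p = 0.0261). Between MPP3 and LT-HSC it called 2 higher and 3 lower, against 7.4% of all genes in either direction, so the count is near the background. Acss2, which makes acetyl-CoA from acetate in the cytosol, was 748 to 1379.9 in LT-HSC with a median of 1255 and 455 to 772 in MPP3 with a median of 589 (log2 difference -0.87, SE 0.15, limma adjusted p = 0.0012), and only the lowest LT-HSC library lay within the MPP3 range. Npc2, which passes cholesterol out of the lysosome, was 1728 to 2222 in LT-HSC with a median of 1956 and 2515 to 3494 in MPP3 with a median of 2917 (log2 difference 0.66, SE 0.12, limma adjusted p = 0.00187). The populations did not overlap for Npc2, as for 4.66% of all genes. Elovl5, an elongase of polyunsaturated fatty acids, was 723 to 1572 in LT-HSC with a median of 1152 and 1406 to 2638 in MPP3 with a median of 2348 (log2 difference 0.84, SE 0.19, limma adjusted p = 0.00976). The other 2 calls were Fads1 (log2 difference -0.90, SE 0.24, limma adjusted p = 0.0233), a desaturase of polyunsaturated fatty acids, and Elovl1 (log2 difference -0.39, SE 0.11, limma adjusted p = 0.0292), an elongase of very long chains. Between MPP2 and MPP3, where 6.88% of all genes were called, limma called 2 higher in MPP2, Acss2 (log2 difference 0.70, SE 0.16, limma adjusted p = 0.0122) and Elovl1 (log2 difference 0.45, SE 0.11, limma adjusted p = 0.0178), and 1 lower, Npc2 (log2 difference -0.68, SE 0.13, limma adjusted p = 0.0041).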

How the data were processed

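The authors deposited 1 table of gene counts, each divided by a size factor of its library (a scaled signal, called normalized count here); whole reads were recovered from it for 100% of values within 1e-06. Per the submitters' processing notes, TopHat2 2.1.1, HTSeq 0.11.2, DESeq and GRCm38 were used; no source used here gives the annotation release or the strand setting. Libraries were made with Nextera XT from sorted cells, per the labels' protocols. Summary rows of HTSeq (5) were left out; they held 78.6 to 81.5% of each library, reads without a unique place most of all. Symbols came from GENCODE M21 (45143 of 45706 matched).

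Genes kept by edgeR's filterByExpr (17160) were fitted with limma 3.58.1 (R 4.3.3; trend, robust) on log2(value + 1) with 6 group means over 20 libraries. Fold changes on that scale understate low genes. Benjamini-Hochberg adjustment ran over all genes tested. EdgeR 4.0.16 and DESeq2 1.42.0 on the recovered reads were alternatives, with other pseudocounts, scaling, filters, covariates and libraries left out. In simulated data for MPP3 against LT-HSC (17160 genes), 100 genes were changed 2-fold and 100 were changed 4-fold. They were drawn only from genes above a level cut. The limma step called 51% of the 2-fold and 79% of the 4-fold changes. These shares do not hold for low genes or for the knockout comparisons within a population, which have fewer libraries.

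Named genes were those called in a comparison, filled to 8 by smallest p, with Srebf1, Srebf2, Insig1, Fasn, Scd1 and Scd2 always included; of other lipid genes, up to 3 called per comparison. The members and lists were chosen with earlier results of these data known. Replicate numbers follow accession order only and pair no samples.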

Additional observations from a re-analysis of the deposited data

Results flagged for a closer look

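In groups of 4 libraries, 5 of 60 sets of values had a library far from the other 3 on the log2 scale; chance alone does so in about 1 of 20 sets. In WT MPP3 replicate 3, Hmgcs1 was at 192 normalized counts where the other 3 ran from 672 to 808, Insig1 was at 48.1 where they ran from 217 to 275, and Tm7sf2, a sterol reductase, was at 0 where they ran from 91.7 to 120.0. That library also had few genes with a read (15826). In WT MPP3 replicate 1, Srebf1 was high at 941 against 609 to 647. In WT LT-HSC replicate 1, Lss was at 18.3 against 216 to 286.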

How the results depend on the processing

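Over 12 alternatives and 20 fits without a library, of which edgeR on 18 libraries and the fits without the 2 libraries that stand apart or the 5 with neutrophil transcripts were chosen after seeing the data, the count of the 30 genes called for the knockout stayed at 0. For MPP2 against LT-HSC, 1 gene was called, and DESeq2 called 2, edgeR on 18 libraries 0 and the fits without the libraries numbered 52 to 54 or the 5 with neutrophil transcripts also 0; leaving out a library gave 0 to 2. For MPP3 against LT-HSC, 1 gene was called, the fit without the 2 libraries that stand apart called 2 (Sqle beside Stard4), and leaving out a library gave 1 to 2. For MPP2 against MPP3, 1 gene was called, and 0 with no filter on low values, in edgeR, in edgeR on 18 libraries and without the 2 libraries that stand apart or the 5 with neutrophil transcripts; leaving out a library gave 0 to 1. The cause was not tested. The median log2 difference of the 30 genes for the knockout in MPP2 was -0.23, but -0.0315 in edgeR, -0.0339 in DESeq2 and 0.0257 in edgeR on 18 libraries, and -0.36 to 0.0011 without a library, the highest without KO MPP2 replicate 3. For MPP2 against MPP3 it was -0.17, but 0.0323 in edgeR and 0.0339 in DESeq2, and -0.24 to 0.0477 without a library. No named gene that was called changed its direction. Over all genes, limma called 2 for the knockout in MPP2, DESeq2 112 and the fit without KO MPP2 replicate 2 350. No paired analysis was made, because the labels name no animal and give no replicate number that groups share. Some library numbers are consecutive over the 3 populations of a genotype, such as 52 to 54 in WT. Whether such libraries share an animal is not known, and the tests treated all libraries as independent. The fit with the run of library numbers as a covariate kept the 3 calls of Cyp51 and Stard4. The number of libraries, 3 or 4 a group, limits the precision, and for genes of few reads, such as Scd1, so does the depth; intervals for single populations span more than a log2 unit for most of the 30 genes.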
